A study of Mus musculus with 2 samples.

Results

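ETn elements, the early transposons of the mouse, are followed here in embryonic stem cells with and without Daxx. A family in the deposited table belonged to this set if its name held ETn in any letter case, or MusD. Of 634 families of transposable elements in the table, 5 met that rule: MMETn-int, ETnERV-int, ETnERV2-int, ETnERV3-int and RLTRETN_Mm. No family carried MusD in its name. The 5 are called ETn families here after their names, and which of them include MusD elements was not determined. All 5 were annotated as LTR elements of the ERVK superfamily (class II endogenous retroviruses), which held 150 families in the table.

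Both cultures were ES cells of mixed B6/129 strain with the genotype Daxx fl/fl; RosaCreERT, a floxed Daxx gene together with a Cre recombinase that 4-hydroxytamoxifen activates, and both grew on mitomycin C inactivated feeder cells with LIF. The control culture was given DMSO. The Daxx-deleted culture was given 1 µM 4-hydroxytamoxifen over 48 hours and then had 3 days of recovery. Each condition was sequenced as 1 RNA library, so Daxx loss cannot be told apart from the drug treatment, Cre activity or the difference between any 2 cultures. The values therefore carry no replicate error and could not be tested. The table held 0 genes, so neither Daxx nor markers of ES or feeder cells were analysed here, and the directions rest on the library labels. RPKM is the number of reads scaled to element length and to a reference total, here the exonic reads of protein-coding genes. Sequencing depth is unknown, which leaves the counting error of each value unknown too, and fewer transcribing cells cannot be told apart from less RNA per cell.

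ETn elements are LTR retrotransposons without genes for retroviral proteins. They depend on the related MusD retrovirus, which codes for the particle and the enzymes that copy and insert them. Both are transcribed in the early mouse embryo and in ES cells, and new ETn insertions are a known source of mouse mutations. An intact element has an internal part between a pair of long terminal repeats (LTRs), which hold the promoter. Daxx, with its partner Atrx, places the histone variant H3.3 in heterochromatin, including that of endogenous retroviruses, where the TRIM28 and SETDB1 proteins maintain repression.

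Of the 5 ETn families, 4 had ratios from 0.822 to 1.05 between the libraries, and the scarce ETnERV3-int had a ratio of 1.73. None of the 5 differed by 2-fold, and few families in the table did: 5.28% of the 436 families above a low floor of level and copies were at least 2-fold higher and 0.459% at least 2-fold lower in the Daxx-deleted library. MMETn-int, the internal part of ETn itself, with 1638 annotated elements, had a level of 2.39 RPKM in the control library and 2.40 RPKM after Daxx deletion. It was the highest of the 150 ERVK families in both libraries, and ranked 7 and 8 among all 634 families. The ratio of the Daxx-deleted to the control value was 1.00.

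RLTRETN_Mm, the LTR of these elements, with 2637 annotated elements, had a level of 0.502 RPKM in the control library and 0.528 RPKM after Daxx deletion. The ratio was 1.05. RLTRETN_Mm and MMETn-int thus differed between the libraries by similar small amounts, while ETnERV2-int and ETnERV-int had ratios of 0.822 and 0.878. In RPKM, MMETn-int was 4.76 times as high as RLTRETN_Mm in the control and 4.55 times as high in the Daxx-deleted library. Reads that map to several places were kept by the authors, so an LTR and its internal part, or related internal parts, can hold the same reads and are not independent measurements.

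The internal parts of the ETn-related retroviruses did not share a direction. ETnERV2-int, the member with the most annotated elements, 5627, had a level of 0.664 RPKM in the control library and 0.546 RPKM after Daxx deletion, a ratio of 0.822. ETnERV-int, with 384 annotated elements, had a level of 0.528 RPKM in the control library and 0.463 RPKM after Daxx deletion, a ratio of 0.878. Both had the lower value in the Daxx-deleted library. ETnERV3-int, with 921 annotated elements, was far below the others. It had a level of 0.0119 RPKM in the control library and 0.0206 RPKM after Daxx deletion, a ratio of 1.73, a difference of 0.00872 RPKM.

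**Figure D1:**
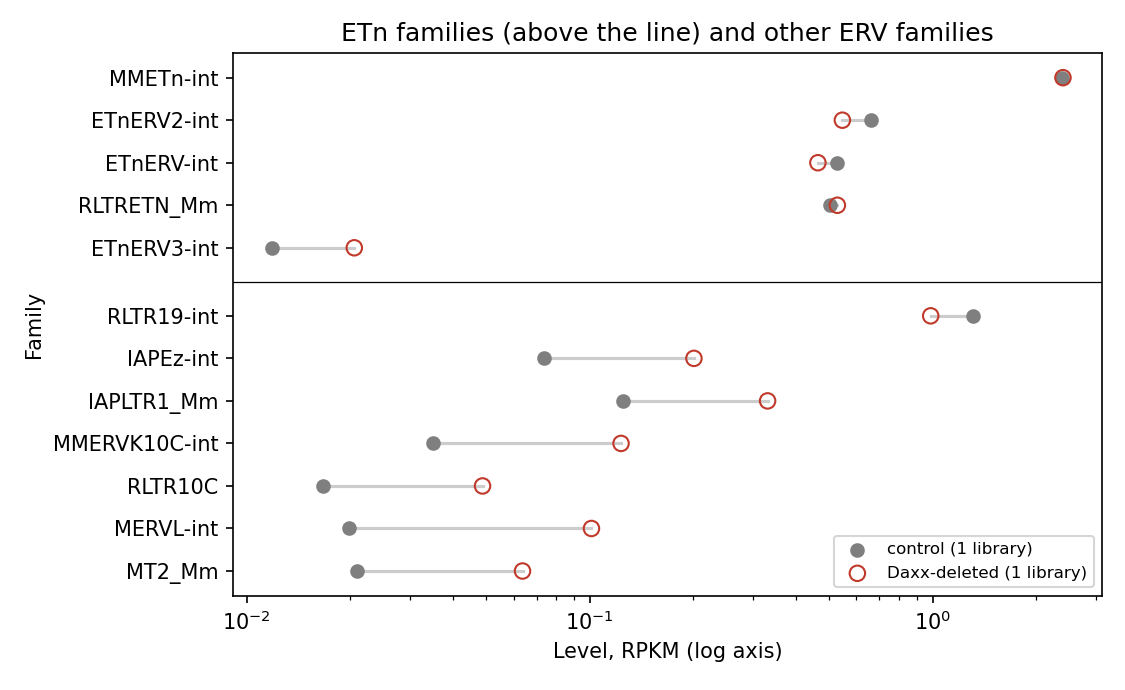
Level of each ETn family and of 7 other ERV families in the control library (filled grey) and the Daxx-deleted library (open red), in RPKM on a log axis, with 1 library per group and no error bars. The markers of MMETn-int nearly coincide at 2.39 and 2.40 RPKM, while those of IAPEz-int lie apart at 0.0736 and 0.201 RPKM.

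By level, the control order was MMETn-int, ETnERV2-int, ETnERV-int, RLTRETN_Mm and ETnERV3-int. In the Daxx-deleted library RLTRETN_Mm and ETnERV-int exchanged places. MMETn-int made up 58.4% of the summed RPKM of the 5 families in the control and 60.7% in the Daxx-deleted library. ETnERV2-int made up 16.2% and 13.8%, and ETnERV3-int made up 0.290% and 0.520%. The sum over the 5 families was 4.09 RPKM in the control library and 3.96 RPKM after Daxx deletion, a ratio of 0.966. A sum of RPKM adds levels per length and is not a count of reads.

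For the comparison with other families, the log2 change was log2 of the Daxx-deleted over the control value after a pseudocount of 0.001 RPKM was added to both. Families entered with a mean level of 0.01 RPKM or more and 100 or more annotated elements, a floor that all 5 members and 436 families in all passed. Of the members, 0 were at least 2-fold higher and 0 at least 2-fold lower, against 23 families (5.28%) and 2 families (0.459%) of the 436. Among the 129 ERVK families past the floor, the shares were 5.43% higher and 0.775% lower. At 1.5-fold, 1 member, ETnERV3-int, was higher and 0 were lower, against 15.1% and 1.38% of the 436 families and 20.2% and 0.775% of the ERVK families. With no fold required, 3 members had the higher value in the Daxx-deleted library, against 78.9% of the 436 families and 84.5% of the 129 ERVK families. The lower value was found in 2 members, against 21.1% and 15.5%. These shares describe 2 libraries, and 5 members that can share reads give no more than a description.

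The median log2 change of the members was 0.01, beside 0.18 for all 436 families and 0.25 for the 129 ERVK families. Relative to the median of all families, the change was -0.46 for ETnERV2-int, -0.36 for ETnERV-int, -0.17 for MMETn-int, -0.11 for RLTRETN_Mm and 0.57 for ETnERV3-int. The sign for MMETn-int and RLTRETN_Mm thus depended on the scale between the libraries: as deposited both were marginally higher in the Daxx-deleted library, and relative to the median family both were lower. Counted from the lowest change of the 436 families, ETnERV2-int was at place 18, ETnERV-int at 35, MMETn-int at 96, RLTRETN_Mm at 132 and ETnERV3-int at 393. Among the 26 ERVK internal parts past the floor, which were grouped by name after the values were seen, ETnERV2-int had the second-lowest change, ETnERV-int was at place 5, MMETn-int at 7 and ETnERV3-int at 20. The 22 internal parts that were not ETn had a median log2 change of 0.43, with 18 higher and 5 of them at least 2-fold higher.

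**Figure D2:**
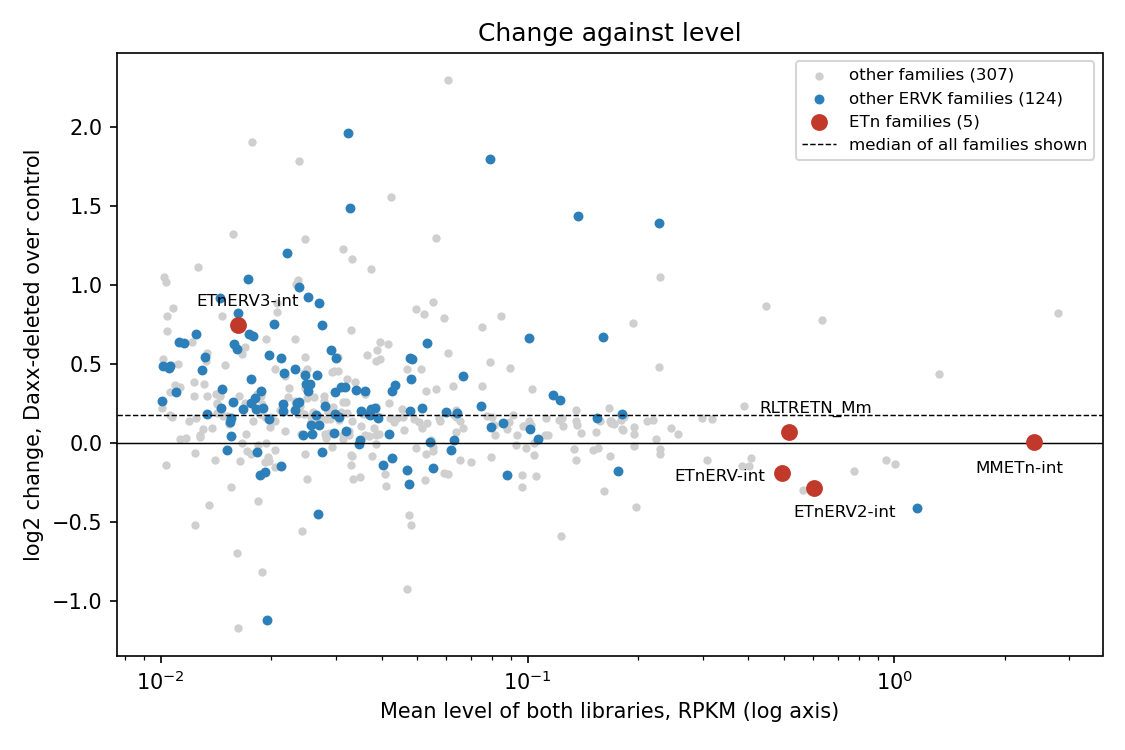
log2 change (Daxx-deleted over control, pseudocount 0.001 RPKM) against the mean RPKM of both libraries (log axis) for the 436 families past the floor, 1 point per family, with the 5 ETn families in red and the other 124 ERVK families in blue. The solid line is at 0 and the dashed line at the median of 0.18. The 4 abundant ETn families lie between -0.28 and 0.07, and ETnERV3-int lies at 0.75.

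Ratios taken inside a library do not depend on the scale between the libraries. Against IAPEz-int, an internal part of intracisternal A-particle elements, MMETn-int was 32.5 times as high in the control and 11.9 times as high in the Daxx-deleted library. IAPEz-int itself stood at 0.0736 and 0.201 RPKM. Against MMERVK10C-int, another class II internal part, the ratio was 68.6 in the control and 19.4 in the Daxx-deleted library. Against MERVL-int, the internal part of a class III retrovirus active in the cleavage embryo, it was 121 and 23.7. Each of these 3 gaps was narrower in the Daxx-deleted library. The 3 families were themselves among the highest changes, IAPEz-int at place 429, MMERVK10C-int at 433 and MERVL-int at 436 of 436. Against RLTR19-int, a class II internal part at a level nearer to its own, MMETn-int went the other way. It was 1.82 times as high in the control and 2.43 times as high in the Daxx-deleted library. RLTR19-int was itself among the lowest changes, at place 12 of 436. Its log2 change of -0.41 was the lowest of the 26 ERVK internal parts past the floor.

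The LTRs of these elements, also among the highest changes (places 428 to 431), gave narrower gaps too. RLTRETN_Mm was 4.02 times as high as IAPLTR1_Mm, an LTR of the intracisternal A-particle, in the control and 1.60 times as high in the Daxx-deleted library. Against RLTR10C the ratio was 30.1 and 10.8, and against MT2_Mm, the LTR of MERVL, it was 23.9 and 8.28. Within the ETn set the ratios moved less among the abundant members. MMETn-int was 3.60 times as high as ETnERV2-int in the control and 4.40 times as high in the Daxx-deleted library, and for ETnERV-int the ratios were 4.53 and 5.18. Between ETnERV2-int and the scarce ETnERV3-int the ratio was 55.9 in the control and 26.5 in the Daxx-deleted library.

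**Figure D3:**
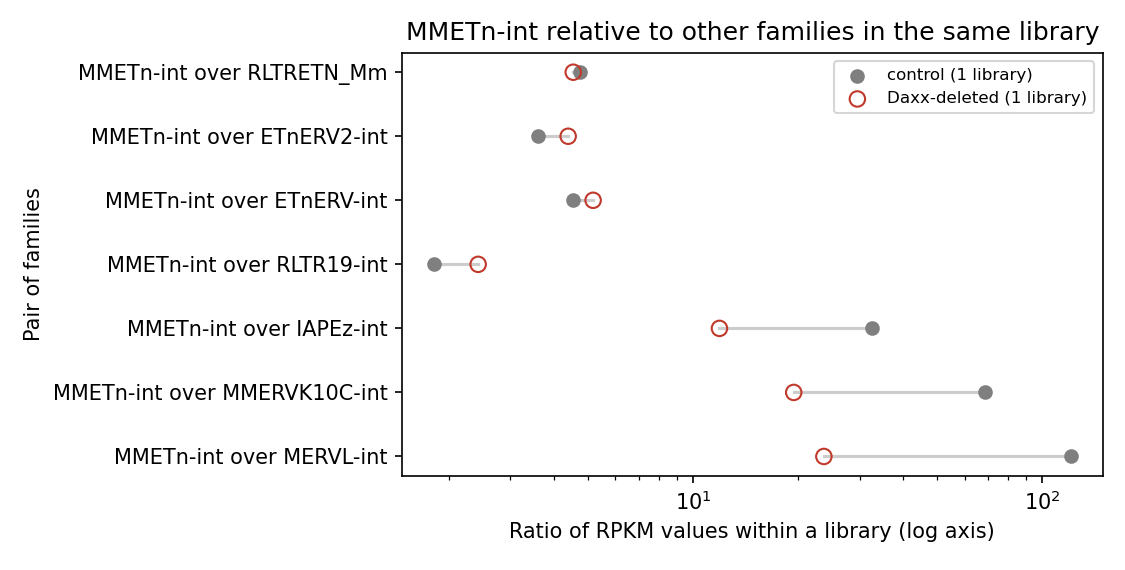
RPKM of MMETn-int divided by that of another family in the same library, on a log axis, for the control (filled grey) and the Daxx-deleted library (open red), 1 library each. The ratio to RLTRETN_Mm was 4.76 and 4.55, while the ratio to IAPEz-int was 32.5 and 11.9 and that to RLTR19-int was 1.82 and 2.43.

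ETn families formed a large share of the summed RPKM of ERVK families in both libraries. Families can hold the same reads, so this is not a share of ERVK reads or transcripts. The 5 families made up 41.4% of the summed RPKM of the 150 ERVK families in the control and 37.1% in the Daxx-deleted library, a difference of -4.37 percentage points. The size of that difference depended on RLTR19-int: without that family the shares were 47.8% and 40.9%, a difference of -6.96 points. The other 145 ERVK families summed to 5.79 RPKM in the control library and 6.72 RPKM after Daxx deletion, a ratio of 1.16. The IAP families, 16 by name, made up 3.95% of the ERVK sum in the control and 7.93% in the Daxx-deleted library, a ratio of their sums of 2.17. The 9 MMERVK10C and RLTR10 families made up 3.20% and 4.38%. The ETn share was thus lower in the Daxx-deleted library, and a share does not depend on the scale between the libraries. On the deposited scale the ETn sum was close to that of the control, and the sum of the other ERVK families was higher. Which of the sums differed does depend on that scale. Their log2 ratios were -0.05 for ETn and 0.22 for the other ERVK families, beside the median of 0.18 for all 436 families.

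**Figure D4:**
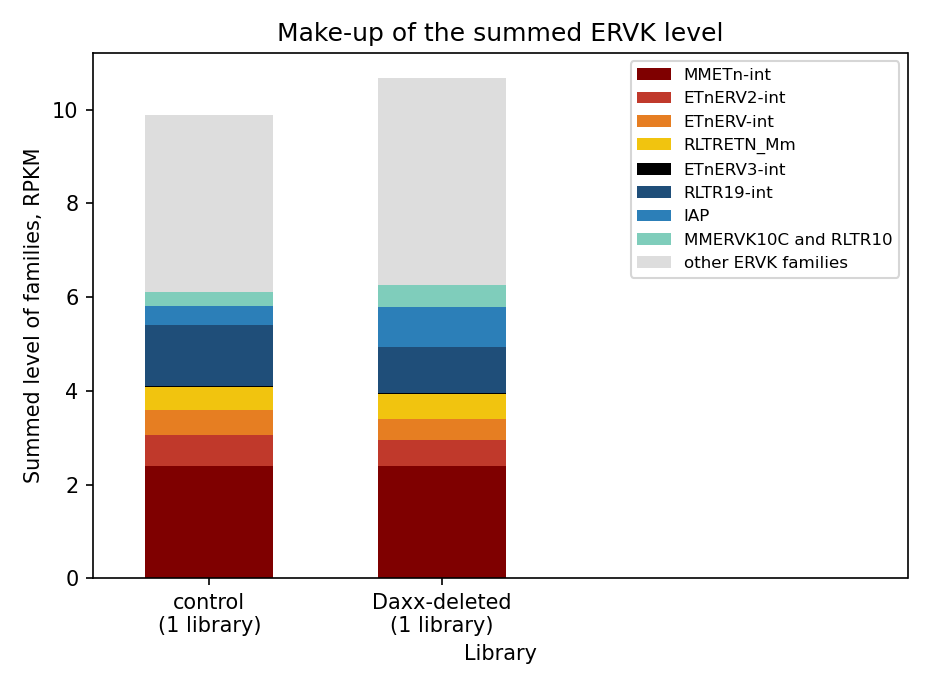
Summed RPKM of the 150 ERVK families in the control and the Daxx-deleted library (1 library each), stacked by family or list, with the axis from 0. The bars total 9.88 and 10.7 RPKM, and the 5 ETn families at the bottom account for 4.09 and 3.96 RPKM.

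The abundant ETn families had few ERVK families of like level beside them. The 5 ERVK families with the highest control level were 4 of the members and RLTR19-int, a class II internal part that had a level of 1.32 RPKM in the control library and 0.988 RPKM after Daxx deletion. RLTR19-int was also the family most like MMETn-int in level and change combined, at a distance of 1.14 on log2 axes over the 2 libraries. The families most like ETnERV2-int, ETnERV-int and RLTRETN_Mm were one another. Below ETnERV-int the next ERVK family in mean level was IAPLTR1_Mm, at 0.125 RPKM in the control library and 0.330 RPKM after Daxx deletion.

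A mean level of 0.4 RPKM or more, with 100 or more annotated elements, was reached by 4 ETn families and 12 others, a limit set after the values were seen. Of the 12 others, 8 had the lower value in the Daxx-deleted library and 4 the higher one, with a median log2 change of -0.12. The 4 higher ones were RLTR4_Mm, MuLV-int, RLTR1B-int and LTRIS2, all class I retroviruses, with ratios from 1.35 to 1.82. MMERGLN-int, also a class I retrovirus, was among the 8 lower ones, with a ratio of 0.913. The LTR families among the 8 lower ones were RLTR19-int, MMERGLN-int and MLT1M. The rest were the LINE family HAL1-2a_MD and the SINE families LFSINE_Vert, B2_Mm1a, B2_Mm1t and MamSINE1. All 8 together, of mixed classes, had ratios from 0.750 to 0.935. ETnERV2-int and ETnERV-int lay inside that range, and MMETn-int and RLTRETN_Mm lay between it and the ratios of the 4 higher families.

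The scarce ETnERV3-int had many neighbours. RLTR10, the next ERVK family above it in mean level and the most like it, had a level of 0.0114 RPKM in the control library and 0.0211 RPKM after Daxx deletion. BGLII_B, the next below, stood at 0.0127 and 0.0197 RPKM. IAPLTR4, the second most like ETnERV3-int in level and change, stood at 0.0131 and 0.0218 RPKM. Likeness was measured on the change too, so a similar change in the most like families follows from how they were picked. Among the 70 other ERVK families with a mean from 0.01 to below 0.03 RPKM, bounds also set after the values were seen, 62 had the higher value in the Daxx-deleted library and the median log2 change was 0.32. ETnERV3-int, at 0.75, was above that median and below the highest of them, 1.20.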

How the data were processed

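Total RNA of 2 ES cell cultures was made into TruSeq libraries, per the labels' protocols. Per the information sheet deposited with the table, the authors aligned reads to mm9 with JAGuaR 2.1, which uses BWA and exon junctions from Ensembl 67. The submitters' processing notes name BWA 0.7.10. For the deposited RPKM values, the authors used as library total the exonic reads of protein-coding genes, after removing mitochondrial genes, ribosomal proteins and the 0.5% most expressed exons. Multi-mapped reads stayed in. The way such reads were shared out is not given in the sources used here, nor are the repeat annotation, the family lengths and the strand setting.

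Columns were matched to samples by treatment, and 0 columns of other samples were present. Whole reads were sought in 50 families with values above 0 in both libraries. They had the smallest products of mean RPKM and number of annotated elements. At the best of 1387 scalings between the libraries, 7 ratios lay within 0.4% of a ratio of whole numbers up to 6, against a median of 3 over all scalings, so depth was not recovered. Ratios in the text carry no pseudocount. Members, lists and settings were chosen with earlier results of these data known. Named families were all members, the 5 highest ERVK families, the level neighbours of each member, the 2 most like each member in level and change, and 6 parts of other elements. Also named were the other families with a mean level of 0.4 RPKM or more and 100 or more annotated elements. That limit was set after the values were seen. The counting was checked on simulated folds. The alternatives were other pseudocounts, floors, folds and scales, and sums without a leading family. Computation used pandas 2.3.3 and numpy 2.4.6 in Python 3.11.15, with matplotlib 3.10.9 for plots.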

Additional observations from a re-analysis of the deposited data

How the results depend on the processing

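With single libraries a log2 value was counted as moved past 1.5-fold (0.58 on the log2 scale), and all but 1 of the members' changes lie below that size, so stability by this measure says little for them. Of 25 alternative values for single members, 24 stayed within it. The exception was ETnERV3-int, whose log2 change was 0.11 in place of 0.75 at a pseudocount of 0.1 RPKM, a pseudocount above its level in either library. The median of the members was in every setting the value of MMETn-int. It was 0.01 under every pseudocount and floor tried, and -0.17 or -0.24 after the median of all or of ERVK families was subtracted. MMETn-int lies far above every pseudocount, so this stability says nothing about the other members. The counts of 0 members past 2-fold in either direction held under every pseudocount, floor and scale. The floors of 0.5 RPKM or 1000 elements left 3 members. Of all families at these settings, from 0% to 9.31% were at least 2-fold higher and from 0% to 2.05% lower. With a pseudocount of 0.1 RPKM, 0 of the 436 families passed in either direction. Counts of 0 members thus say little. At 1.5-fold, 1 member was higher and 0 were lower, against 15.1% and 1.38% of the 436 families. The log2 ratio of the summed RPKM was -0.05, and -0.13 without MMETn-int. The ETn share of the ERVK sum differed by -4.37 percentage points, by -3.94 without MMETn-int, and by -6.96 without RLTR19-int, an alternative chosen after seeing the data. The last value is more than 1.5 times the first and in the same direction. No paired analysis was possible because there was only 1 library for each condition.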
